A study of Homo sapiens with 2 samples.

Results

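The HIF pathway and low-oxygen response genes comprised 10 genes chosen for their roles, namely the HIF subunits HIF1A and ARNT, the oxygen sensing genes VHL, EGLN1 and EGLN3, and the non-glycolytic HIF targets BNIP3, BNIP3L, P4HA1, KDM3A and VEGFA. They were read by 28 probe sets that the array annotation pairs with 1 of these genes only, out of 41091 such probe sets for 19775 genes. The genes were chosen by role, and the level and the siHLX minus siCTR difference of each probe set on these same arrays were known when they were selected, so their values are given as a description. The cells were SU-DHL-1, a long-established line of the T-cell lymphoma ALCL (anaplastic large cell lymphoma) with the NPM1-ALK fusion. One culture had received siRNA to knock down HLX, an NKL homeobox gene (siHLX), and the other the AllStars negative control siRNA (siCTR), both by electroporation. Each was measured on 1 HG-U133 Plus 2.0 array, with no replicates, so no p-value is given and the number of arrays limits the precision. A transcript that is lower in a bulk sample may reflect fewer cells that express it or less RNA per cell, which cannot be told apart.

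HIF is a transcription factor made of an alpha subunit, such as the product of HIF1A, and the beta subunit ARNT. With oxygen present, prolyl hydroxylases of the EGLN family modify the alpha subunit, and the VHL ubiquitin ligase then marks it for degradation. When oxygen is low the alpha subunit is spared, pairs with ARNT and binds hypoxia response elements near genes of metabolism, mitophagy, matrix formation and vessel growth. HIF1A is thus controlled largely at the protein level, which expression arrays do not read. The arrays were made to look for genes downstream of HLX.

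The target of the siRNA, HLX, read 7.70 on the siHLX array and 8.15 on the siCTR array, a difference of -0.45 on the log2 scale or 0.73 times the level with siCTR, and of -0.16 after scaling to the poly-A spike controls. The median log2 intensity was 4.87 on both arrays, as quantile normalisation sets it, and 3' minus 5' probe sets of ACTB gave 0.72 with siHLX and 0.76 with siCTR. All 7 ALCL and activated T-cell markers lay above the level threshold, among them TNFRSF8 at 9.79 with siHLX and 9.92 with siCTR. Markers of B cells (3 of 5), myeloid cells (2 of 6) and epithelial or stromal cells (3 of 7) also passed it. The poly-A spike controls, added before labelling, averaged -0.29 (SD 0.18) and 23 of 24 were lower on the siHLX array. Scaling both arrays to equal poly-A controls therefore moves the median of all genes to 0.28, against -0.01 as deposited, and every difference given here is relative to most other genes. The part of the poly-A difference in the results was not tested.

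Among the 10 genes, both mitophagy receptor genes and the collagen hydroxylase gene P4HA1 were higher on the siHLX array, by 1.22 to 1.31 times on their brightest probe sets, and ARNT by 1.32 times. HIF1A itself was nearly equal on both arrays. KDM3A, VHL and VEGFA were lower on their brightest probe sets, by 0.19, 0.17 and 0.06 log2 units, and all 3 turned above 0 when the arrays were scaled to equal poly-A controls. In all, 9 of the 10 genes had a brightest probe set that reached the level threshold of 4.865, the median of all probe sets that were not controls, and EGLN3 did not. Of these 9 genes, 6 were higher and 3 lower, beside 47.4% higher and 50.1% lower among the 12135 genes above the threshold. Their median difference was 0.19, beside -0.01 over all of those genes. None of the 9 reached 1.5-fold in either direction on the brightest probe set, a limit that 2.5% of all genes passed upward and 2.55% downward. Of the 28 probe sets, 17 were higher and 11 lower.

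**Figure D1:**
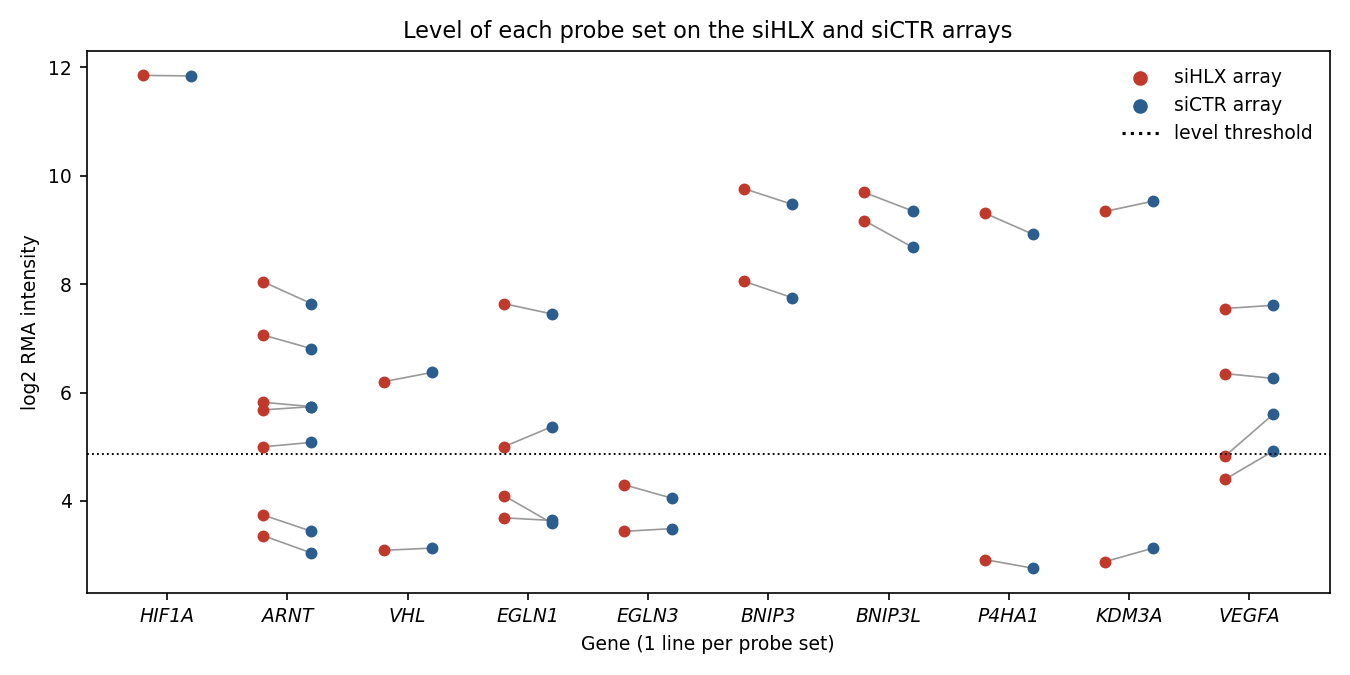
Log2 RMA intensity (y axis) of each probe set of the 10 genes (x axis), with the siHLX array left (red) and the siCTR array right (blue); grey lines join the readings of 1 probe set and the dotted line is the level threshold of 4.865. Lines of BNIP3, BNIP3L and P4HA1 slope down toward siCTR, that of HIF1A is level at 11.85 with siHLX and 11.84 with siCTR, and both probe sets of EGLN3 lie below the threshold.

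HIF1A, which encodes the oxygen-regulated alpha subunit, had 1 probe set. It read 11.85 on the siHLX array and 11.84 on the siCTR array, a difference of 0.01. To place each difference, its like-level share was taken, the percentage of probe sets within 0.5 log2 units of its mean level with a difference of at least that size and the same sign. For HIF1A this share was 41.2%, in the middle of its neighbours in level.

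ARNT, the constitutive beta subunit, had 7 probe sets. The brightest read 8.04 with siHLX and 7.64 with siCTR, a difference of 0.40 with a like-level share of 3.85%. The next read 7.06 with siHLX and 6.81 with siCTR, a difference of 0.25. The probe sets disagreed, since those closer to the threshold gave 0.08, -0.06 and -0.08. Those below the threshold gave 0.30 and 0.32. Over all of them the mean was 0.17 (SD 0.19, 7 probe sets), an SD that is technical because probe sets of a gene read the same RNA. Across all 5869 genes with at least a pair of probe sets above the threshold, the SD within genes, pooled, was 0.27.

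Of the oxygen sensing genes, the 8 probe sets had like-level shares from 11.1% to 47.6%. VHL encodes the recognition subunit of the ubiquitin ligase that destroys HIF alpha, and its probe set above the threshold read 6.20 with siHLX and 6.37 with siCTR. This difference of -0.17 had a like-level share of 29.2%, and lay above 0, at 0.12, with equal poly-A controls. EGLN1, the main oxygen-sensing prolyl hydroxylase, gave 7.64 with siHLX and 7.45 with siCTR on its brightest probe set, a difference of 0.19 with a share of 19.0%. Its other probe sets disagreed, with -0.37 on the second one above the threshold and 0.51 and 0.05 on those below. EGLN3, a hydroxylase gene that is itself induced by HIF in many cells, read 4.30 with siHLX and 4.05 with siCTR on its brighter probe set and 3.44 with siHLX and 3.49 with siCTR on the other. With both readings below the threshold, its differences of 0.25 and -0.05 settle no direction.

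**Figure D2:**
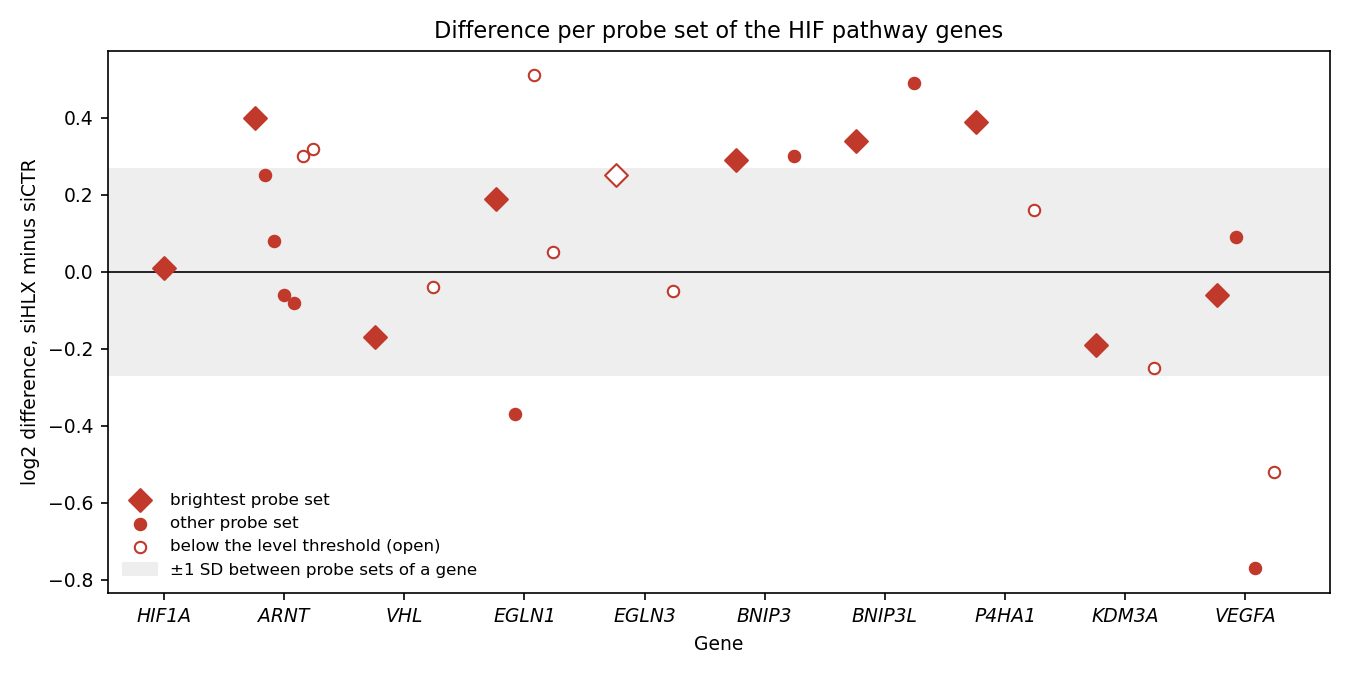
Log2 difference, siHLX minus siCTR (y axis), of each probe set of the 10 genes (x axis); diamonds are the brightest probe set of a gene, open symbols lie below the level threshold, and the grey band is 1 SD (0.27) between probe sets of a gene on each side of 0. Both probe sets of BNIP3 and of BNIP3L lie above the band at 0.29, 0.30, 0.34 and 0.49, while those of ARNT, EGLN1 and VEGFA lie on both sides of 0.

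BNIP3 and BNIP3L encode related receptors in the outer mitochondrial membrane that direct mitochondria to autophagy and are classical HIF targets. For BNIP3 the brighter probe set read 9.76 with siHLX and 9.47 with siCTR, and the other 8.05 with siHLX and 7.75 with siCTR. The differences of 0.29 and 0.30 differed from each other by less than this pooled SD. Their like-level shares were 2.86% and 7.12%. BNIP3L was higher by more, with 9.69 on the siHLX array and 9.35 on the siCTR array on the brighter probe set, and 9.17 with siHLX and 8.68 with siCTR on the other. Its differences were 0.34 and 0.49, with like-level shares of 1.71% and 0.675%. Among the 10 genes and in the values as deposited, these were the only ones with at least a pair of probe sets above the threshold that all lay on 1 side of 0.

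P4HA1 encodes the catalytic subunit of the prolyl hydroxylase that stabilises collagen, an enzyme that, like the EGLN proteins, uses oxygen as a substrate. It read 9.31 on the siHLX array and 8.92 on the siCTR array, a difference of 0.39 or 1.31 times, with a like-level share of 1.12%. Its second probe set, below the threshold at 2.92 with siHLX and 2.76 with siCTR, gave 0.16.

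KDM3A, a histone H3K9 demethylase and also a HIF target, had the other direction. Its probe set above the threshold read 9.34 with siHLX and 9.53 with siCTR, a difference of -0.19 or 0.88 times with a like-level share of 12.1%, which became 0.10 with equal poly-A controls. The probe set below the threshold gave -0.25. As deposited, the histone demethylase and the collagen hydroxylase gene thus lay on opposite sides of 0.

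VEGFA, the growth factor of blood vessels, gave mixed readings on its 4 probe sets, all of the _s_at or _x_at kind, which can match more than 1 transcript. The brightest read 7.55 with siHLX and 7.61 with siCTR, a difference of -0.06 that became 0.23 with equal poly-A controls. The second read 6.35 with siHLX and 6.26 with siCTR, a difference of 0.09. On dimmer probe sets VEGFA was lower, with 4.83 on the siHLX array and 5.60 on the siCTR array in one and 4.40 with siHLX and 4.92 with siCTR in the other. The differences of -0.77 and -0.52 had like-level shares of 4.69% and 13.9%, and the siHLX readings of both lay below the threshold. The first of these was the only reading of the 28 that reached 1.5-fold.

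**Figure D3:**
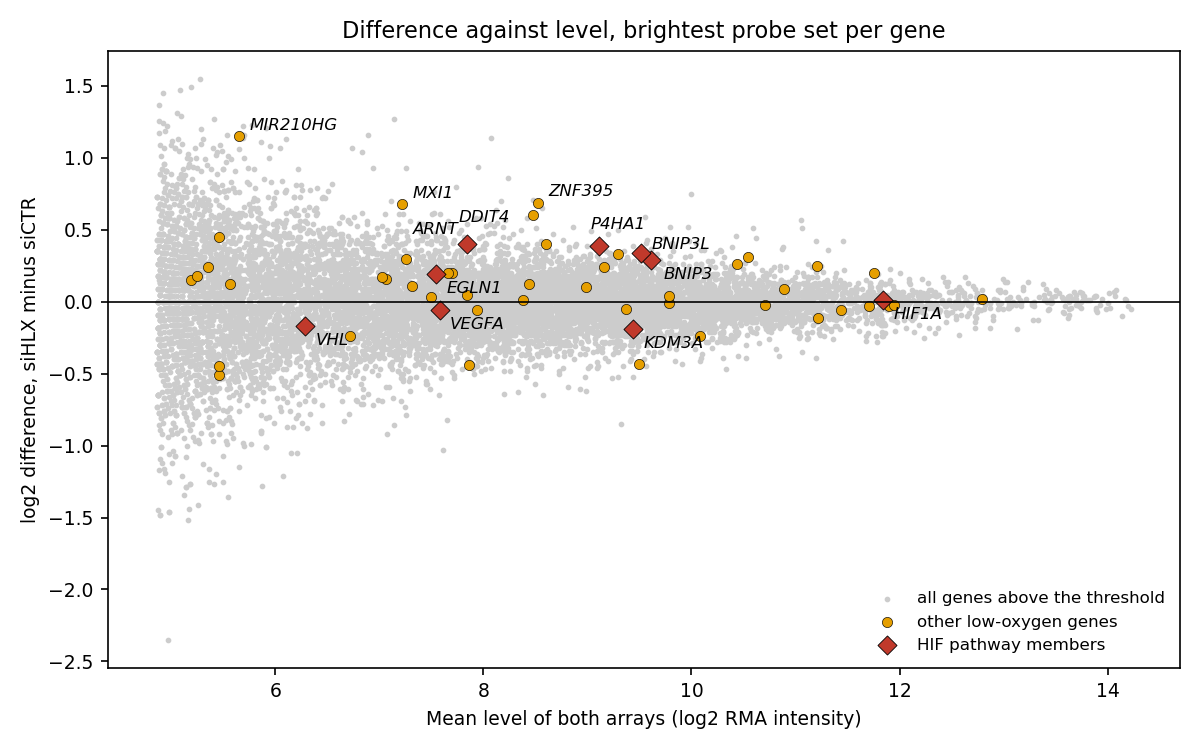
Log2 difference, siHLX minus siCTR (y axis), over mean level (x axis, log2 RMA intensity averaged over the arrays) for 12135 genes above the level threshold (grey), 9 HIF pathway genes (red diamonds) and 45 other low-oxygen genes (orange). P4HA1, BNIP3 and BNIP3L lie in the upper part of the grey points at their level, with like-level shares of 1.12%, 2.86% and 1.71%, and HIF1A lies at 0.01; differences are relative to most other genes, and those of VHL, KDM3A and VEGFA turn above 0 with equal poly-A controls.

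HIF binds a short core motif, so the 250 bases upstream of the start site were searched for ACGTG and GCGTG on both strands in the RefSeq promoters (GRCh38.p14). Of the 10 genes, 7 had an entry: HIF1A, ARNT, EGLN1, EGLN3, BNIP3, P4HA1 and KDM3A; VHL, BNIP3L and VEGFA had none in the table used. At least 1 match was found in 5 of the 7, beside 43.2% of the 35116 promoters in the table, and ARNT and EGLN3 had none. For HIF1A and KDM3A, which have a pair of start sites in the table, the one with the lower coordinate was counted. The other window of HIF1A held no match, so the count of 5 depends on this choice, while each window of KDM3A held 1. The 43.2% is over all promoters in the table, where a gene can have several. BNIP3 held 6 matches, starting between 143 and 104 bases before the start site, and a pair of them overlapped in CACGTG, an E-box that MYC and MAX proteins also bind and that 6.34% of all promoters held. A match is a description of these letters and not evidence of binding. The promoters of the HIF targets BNIP3 and P4HA1 and of EGLN1, which were higher on the siHLX array on the brightest probe set, are shown beside that of KDM3A, which was lower unless scaled to poly-A controls, with the matches in capitals. They lie at chr10:131981924-131982173 (minus strand), chr10:73096867-73097116 (minus strand), chr1:231422288-231422537 (minus strand) and chr2:86441121-86441370 (plus strand).
BNIP3: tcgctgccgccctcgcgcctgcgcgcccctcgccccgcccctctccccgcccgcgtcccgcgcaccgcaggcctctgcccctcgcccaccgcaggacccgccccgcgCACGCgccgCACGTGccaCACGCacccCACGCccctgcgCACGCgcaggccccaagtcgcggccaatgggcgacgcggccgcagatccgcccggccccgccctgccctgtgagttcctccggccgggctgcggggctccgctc
P4HA1: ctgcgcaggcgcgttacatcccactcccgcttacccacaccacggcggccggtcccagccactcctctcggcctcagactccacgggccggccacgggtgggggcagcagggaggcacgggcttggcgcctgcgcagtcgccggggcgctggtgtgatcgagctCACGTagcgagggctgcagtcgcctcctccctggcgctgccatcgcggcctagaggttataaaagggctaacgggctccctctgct
EGLN1: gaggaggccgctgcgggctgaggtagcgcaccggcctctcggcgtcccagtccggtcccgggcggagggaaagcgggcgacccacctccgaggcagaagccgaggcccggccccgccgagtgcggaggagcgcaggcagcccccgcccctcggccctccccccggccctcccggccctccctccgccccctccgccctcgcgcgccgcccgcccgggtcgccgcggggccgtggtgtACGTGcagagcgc
KDM3A: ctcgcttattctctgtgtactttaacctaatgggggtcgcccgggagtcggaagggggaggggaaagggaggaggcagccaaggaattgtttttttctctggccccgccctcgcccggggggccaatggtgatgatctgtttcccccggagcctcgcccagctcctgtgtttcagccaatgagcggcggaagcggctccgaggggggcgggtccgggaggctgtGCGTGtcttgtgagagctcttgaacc
The single match of P4HA1 starts 86 bases before the start site, that of EGLN1 13 bases and that of KDM3A 26 bases. Among the genes above the threshold with a higher reading on the brightest probe set, ARNT had no match in its window. EGLN3, which lay below the threshold, had none either.

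A wider list of 61 low-oxygen genes was then read in the same way, of which 57 had a probe set of their own and 45 lay above the level threshold. On the siHLX array 30 of the 45 were higher and 15 lower. Their median was 0.11, beside 47.4% higher and a median of -0.01 over all genes. By the brightest probe set, 4 of the 45 genes reached 1.5-fold upward and 0 downward, beside 2.5% of all genes upward and 2.55% downward. The 4 genes were MIR210HG, ZNF395, MXI1 and DDIT4, of which all but MIR210HG are named here after their values were seen. Dimmer probe sets passed this limit in both directions, such as -0.85 for WSB1 and 0.86 for AK4, also named after their values were seen. The list was written with earlier readings of these arrays known, MXI1 among them, and is no independent evidence of a direction. The remaining 4 genes of the list were not analysed here.

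Genes that act upstream of the HIF targets showed no common direction. Of the subunit genes, EPAS1, which encodes HIF2 alpha, read 11.88 with siHLX and 11.91 with siCTR, and HIF3A 5.20 with siHLX and 5.71 with siCTR, while ARNT2 lay below the threshold. The HIF3A reading was close to the threshold, with a like-level share of 11.6%. Of its 7 probe sets, 4 were higher and 3 lower. The 9 genes of oxygen sensing and HIF degradation had a median of -0.03, with 3 higher and 6 lower. LIMD1, a scaffold that brings EGLN and VHL proteins together, read 8.80 with siHLX and 8.40 with siCTR on its brightest probe set, and SIAH1, a ubiquitin ligase gene for EGLN proteins, 9.28 with siHLX and 9.71 with siCTR. Both had probe sets that disagreed, with -0.46 for LIMD1 at a dimmer probe set and 0.01 for SIAH1. Of the coactivator group, CITED4 had 0.45 and CITED2, which competes with HIF for the coactivators CBP and p300, had -0.01. The 1 probe set of CITED4 was close to the threshold, with a like-level share of 14.4%. Dimmer probe sets of CITED2 gave 0.04 and 0.38.

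Of the 16 targets with a role in regulation and signalling, the 11 above the threshold all lay above 0 on the brightest probe set, with a median of 0.31, beside 47.4% higher over all genes. Of the other 5, below the threshold, VLDLR, TMEM45A, BHLHE41 and NT5E read -0.49, -0.36, -0.35 and -0.35, and CXCR4 read 0.10. MIR210HG, the host transcript of the low-oxygen microRNA miR-210, read 6.23 on the siHLX array and 5.08 on the siCTR array. Its difference of 1.15 was the only one at 2-fold, a limit that 0.453% of all genes passed upward, and its like-level share was 0.32%. The siCTR reading was close to the threshold, and differences of probe sets at like level had an SD of 0.40. The second probe set of MIR210HG, below the threshold, gave 0.30. The array reads the host transcript and not the mature microRNA, whose main strand is given here from RefSeq (GRCh38.p14, chr11:568112-568133, minus strand) with the seed, bases 2 to 8, in capitals.
hsa-miR-210-3p: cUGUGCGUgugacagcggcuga
ZNF395, a zinc finger gene induced by low oxygen, read 8.87 with siHLX and 8.18 with siCTR, with a like-level share of 0.177%, and its dimmer probe set above the threshold gave 0.14. MXI1, which encodes an antagonist of MYC, read 7.56 with siHLX and 6.88 with siCTR, and DDIT4, an inhibitor of mTOR signalling, 8.78 with siHLX and 8.18 with siCTR. Both had 1 probe set. AK4, a mitochondrial adenylate kinase gene, was counted in this group and not among the mitochondrial targets. It was named after its values were seen, and was higher on all 4 of its probe sets, by 0.31, 0.39, 0.48 and 0.86. The lowest of the 11 genes above the threshold was ANKRD37, which read 7.37 with siHLX and 7.26 with siCTR.

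**Figure D4:**
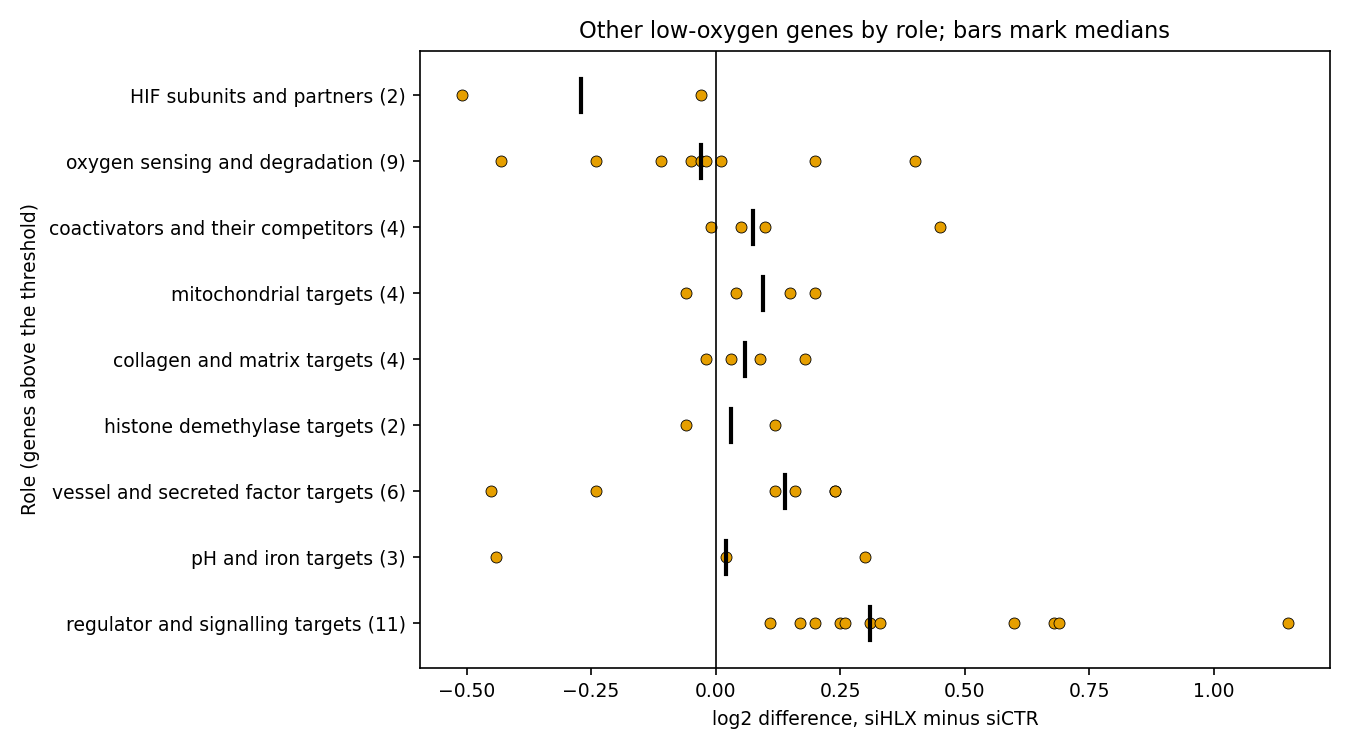
Log2 difference, siHLX minus siCTR (x axis), of 45 other low-oxygen genes above the level threshold by role (y axis, number of genes in parentheses), each by its brightest probe set; black bars mark medians. Relative to most other genes, the 11 regulator and signalling targets above the threshold lie above 0, with a median of 0.31, while the 9 oxygen sensing and degradation genes spread from -0.43 to 0.40.

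The remaining target groups lay closer to 0. Mitochondrial targets had a median of 0.10, and FAM162A, a mitochondrial protein gene induced by HIF, read 11.85 with siHLX and 11.65 with siCTR. Its other probe sets of like brightness gave 0.21 and 0.17, whereas 0.97 and -1.02 came from dim ones. All 3 bright probe sets are of the _x_at kind, which can also match other transcripts, and they read nearly the same level. HIGD1A, from the same group, had -0.06. Collagen and matrix targets had a median of 0.06, with LOXL2 at 0.18 and the lysyl hydroxylase gene PLOD2 at -0.02. Their probe sets disagreed, since the other one above the threshold gave -0.58 for LOXL2 and 0.32 for PLOD2. P4HA2, the paralogue of P4HA1, and the lysyl oxidase gene LOX gave 0.40 and 0.51 on their brightest probe sets, both below the threshold, while their dimmer probe sets gave values from -0.93 to 0.08, and both are named after their values were seen. Of the histone demethylase genes, KDM4B had 0.12 and KDM4C -0.06. Vessel and secreted factor targets had a median of 0.14, with PDGFB at 0.24 and the endothelin gene EDN1 at -0.45, both at levels close to the threshold. Of the pH and iron targets, CA12, a membrane carbonic anhydrase gene, had 0.30, and HMOX1, which encodes heme oxygenase, read 7.64 with siHLX and 8.08 with siCTR, a difference of -0.44 with a like-level share of 1.74%.

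The differences of HIF1A, ARNT, EGLN1, BNIP3 and BNIP3L stayed above 0 under all 8 alternative settings. So did that of P4HA1 except without _s_at or _x_at probe sets, where it had no value. For EGLN1 the mean of all 4 probe sets was 0.095, but that of the 2 above the threshold was -0.09. Several settings could not have turned these genes below 0. Median centring left the values as deposited, the level thresholds change no value of a gene, and poly-A scaling raises every gene alike. Leaving out _s_at or _x_at probe sets kept the brightest probe set of HIF1A, ARNT, EGLN1, BNIP3 and BNIP3L, and so their values. HIF1A had 1 probe set, so averaging could not move it either. For comparison, 55 genes of the whole array passed 2-fold upward and 47 downward with siHLX, and with equal poly-A controls 179 were higher and 13 lower.

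**Figure D5:**
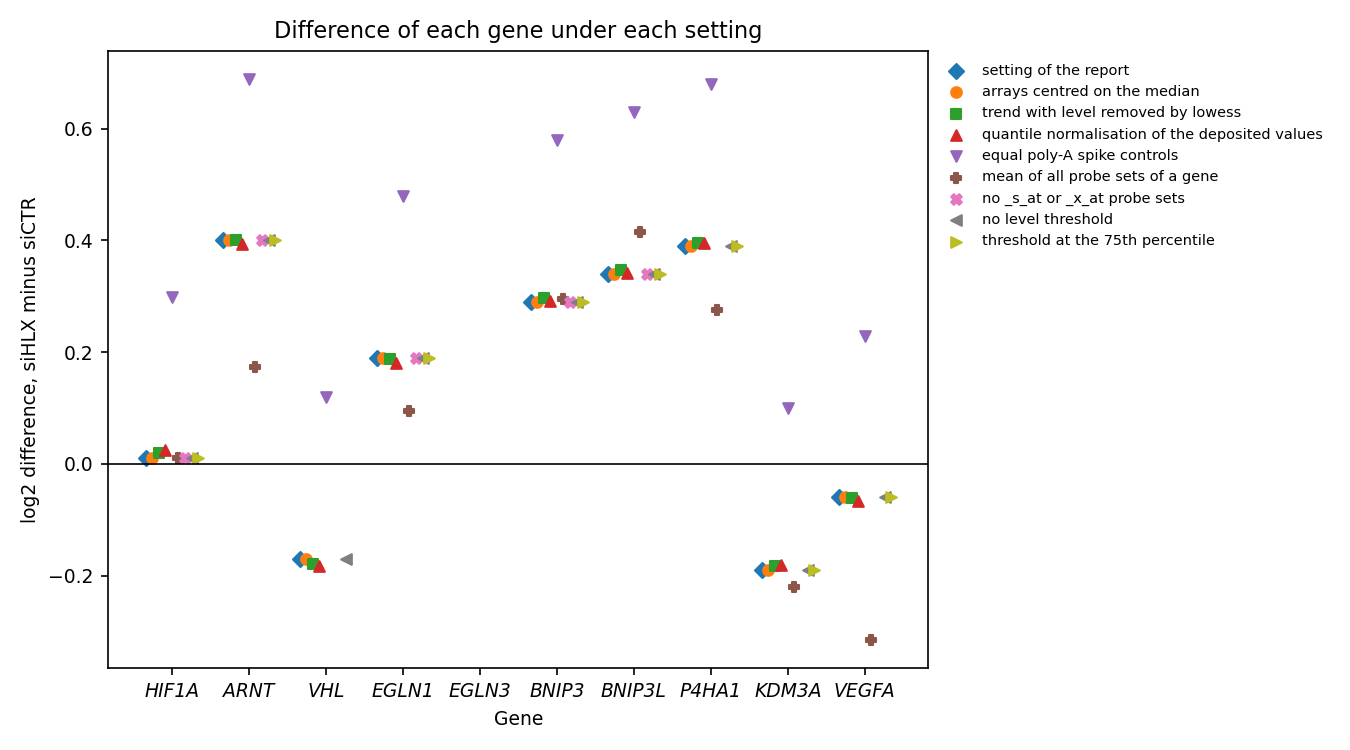
Log2 difference, siHLX minus siCTR (y axis), of each HIF pathway gene (x axis) as reported and under 8 alternative settings (symbols); EGLN3, below the level threshold, has no value. Equal poly-A controls move every gene up by 0.29 and bring VHL to 0.12, KDM3A to 0.10 and VEGFA to 0.23, all above 0, while the other settings leave the sign of each gene as it was.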

How the data were processed

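Values were log2 intensities per probe set, deposited by the authors after RMA background correction and quantile normalisation in R with limma and affy (versions not given in the sources used here). Quantile normalisation makes both arrays equally bright, which hides a shift common to most transcripts. A ratio to the sample mean, described in the methods of the study, was not seen in the values. Leaving out controls, 54613 probe sets remained, of which the platform annotation gives 41091 for 1 gene, 1801 for several genes and 11721 for none, and only the first were used. Symbols were updated through Entrez identifiers with the RefSeq table of GRCh38.p14, where 41037 were found and 0 symbols changed.

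Differences were siHLX minus siCTR. A gene was represented by its brightest probe set (mean over both arrays) and counted from a mean of 4.865 upward, the median of probe sets other than controls. With 1 array per group no test was run. Named genes were the 10 members, HLX and, in each role group of the wider list, the gene with the most positive and the one with the most negative difference, or all genes of a group of up to 3. Other genes of the wider list, among them WSB1, AK4, P4HA2, LOX, ZNF395, MXI1 and DDIT4, were named with their values known. Members, lists and settings were chosen with earlier results of these data known. Alternatives were median centring, lowess (fraction 0.2), quantile normalisation, poly-A scaling, averaging the probe sets of a gene, leaving out those ending in _s_at or _x_at, no threshold, a threshold at the 75th percentile and a 1.5-fold limit. The steps were tested on simulated data, with Python 3.11.15, pandas 2.3.3 and statsmodels 0.14.6.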

Additional observations from a re-analysis of the deposited data

Results flagged for a closer look

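Probe sets shared by several genes took no part in the comparisons. Of the 7 such probe sets that include a gene of the lists used here, 5 were higher on the siHLX array than on the control array, which is why they are given. All 3 shared by ZNF395 and FBXO16 were higher, with 6.80 on the siHLX array and 6.61 on the siCTR array (difference 0.19), 6.77 with siHLX and 6.35 with siCTR (0.42), and 7.02 with siHLX and 6.68 with siCTR (0.34). The probe set shared by INVS and WSB1 read 0.42 and that shared by LONP2 and SIAH1 0.17. The other two, both shared by EGLN2 and RAB4B-EGLN2, were lower, at -0.12 and -0.46. None of these differences can be assigned to 1 gene, and with 1 array per group none was tested.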

How the results depend on the processing

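The median difference of the HIF pathway genes was 0.48 with equal poly-A controls, where that of all genes was 0.28, and 0.29 without _s_at or _x_at probe sets, which left 5 of them. Under the other alternatives it ran from 0.13 to 0.24, beside 0.19 as reported. These moves were smaller than the pooled SD between probe sets divided by the root of the number of genes. That limit only sorted the settings and is no standard error, since the genes are not replicates. The median of the wider list was 0.40 with equal poly-A controls and 0.07 when only levels from the 75th percentile upward were used, and 17 of its 26 genes were higher without _s_at or _x_at probe sets, a lower count because fewer genes were read. Counts of all genes past the fold limit were 102 as reported, 192 with equal poly-A controls, 50 with the mean of all probe sets, 275 without a level threshold, 3 from the 75th percentile of level upward and 613 at 1.5-fold. Of 66 values of single HIF pathway genes under alternatives, 9 moved by more than the pooled SD of 0.27, all with equal poly-A controls, where VHL, KDM3A and VEGFA changed sign. No paired analysis was possible because each group had 1 array. Readings near the level threshold are limited by signal over background: the SD of differences among probe sets of like level was 0.46 around the second EGLN1 probe set and 0.10 around HIF1A.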
